A study of Mus musculus with 4 samples.

Results

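The 9 genes described here carry the vitamin D and retinoid signals of the skin. They comprise the nuclear receptor genes Vdr, Rxra, Rara and Rarg, the vitamin D enzymes Cyp27b1 and Cyp24a1, and the retinoid genes Dhrs9, Crabp2 and Cyp26b1. The list was given by gene name, and they are 9 of 55450 genes in the GENCODE annotation of the mouse genome (mm10). Peaks of 4 ATAC-seq libraries were merged wherever they overlapped by 1 bp or more, which gave 82641 open regions. The 104 regions that overlapped the body of one of these genes, or the 25 kb on either side, are the ones reported. ATAC-seq marks open chromatin by letting the Tn5 transposase insert sequencing adapters where DNA is accessible.

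All libraries came from epidermal keratinocytes, sorted as EpCam+ cells high in CD49f, of female mice aged 8 to 12 weeks. Every mouse, controls included, had received Aldara cream with 5% imiquimod on the skin for 8 days and was sampled 4 h after the last dose. The 2 Mapk8-KO libraries lacked Mapk8, the gene for the kinase JNK1. The study's methods give a C57BL/6 background, a floxed Mapk8 allele and littermates as controls, and a Cre driven by the keratin 14 promoter for the epidermal deletion. This driver limits the deletion to cells that use the keratin 14 promoter or descend from them. The other 2 libraries were wild type (WT). The labels give no untreated library and do not say whether a library is 1 mouse or a pool, so the spread between libraries may be partly technical.

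Vitamin D becomes active when Cyp27b1 adds a hydroxyl group to it, and the active hormone binds the receptor encoded by Vdr. Retinol is oxidised in steps to retinoic acid, which Crabp2 carries to the retinoic acid receptors. Vdr, Rara and Rarg proteins each pair with a retinoid X receptor such as that of Rxra, and the pairs bind direct repeats of a short hexamer in DNA. Cyp24a1 and Cyp26b1 break down the active vitamin D and the retinoic acid, respectively, and in epidermis both hormones act on keratinocyte growth and differentiation. JNK1 phosphorylates proteins of the AP-1 family, which bind the letters TGACTCA or, read on the other strand, TGAGTCA.

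Of the 104 regions, 17 held an AP-1 motif within 100 bp of the strongest summit, the base with the most fragments. That is 16.3% (Wilson 95% interval 10.5 to 24.6), against 23.7% of all 82641 regions. Outside promoters, meaning over 2 kb from any transcription start site, the shares were 22.7% (15 of 66) and 28.0%. The hexamer searched was AGGTCA or AGGTGA, with G also allowed for the first A and T also allowed for the second G of either, repeated in 1 direction on either strand. Repeats with a spacer of 3 bases (DR3, the type bound by the vitamin D receptor) occurred in 1 of the 104 regions and in 0.258% of all regions. Repeats with a spacer of 5 bases (DR5, the type bound by retinoic acid receptors) also occurred in 1, against 0.235% of all regions. Spacers of 1 and 2 bases gave 0 of 104 regions each, against 0.311% and 0.276%. The single-decamer p63 motif stood in 9 regions (8.65%), against 9.08% of all regions. A match describes the letters of a window and shows no binding.

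The windows shown first come from Dhrs9 and Cyp24a1. They are the promoter region of each gene, the Dhrs9 intron that ranked higher in WT (by the rule given below) and the Cyp24a1 region with the largest difference. Regions with large differences around other genes are not shown. All are mm10, plus strand, with AP-1 letters in capitals. The Dhrs9 start site region is shown only at its motif (chr2:69380433-69380461). The motif spanned the start site, and its centre lay 2 bp from that site and 26 bp from the summit. The second Dhrs9 window lies in an intron (chr2:69398423-69398623), the third across the Cyp24a1 promoter (chr2:170497370-170497570) and the fourth downstream of Cyp24a1 (chr2:170469666-170469866). The Cyp24a1 promoter window held none of the motifs searched and therefore has no capitals.
Dhrs9 start site: tgcaataggtgTGACTCActgagagaagt
Dhrs9 intron: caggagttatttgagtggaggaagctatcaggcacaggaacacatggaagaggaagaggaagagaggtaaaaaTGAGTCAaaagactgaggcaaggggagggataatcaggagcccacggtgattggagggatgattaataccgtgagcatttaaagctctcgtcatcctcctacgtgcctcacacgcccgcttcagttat
Cyp24a1 promoter: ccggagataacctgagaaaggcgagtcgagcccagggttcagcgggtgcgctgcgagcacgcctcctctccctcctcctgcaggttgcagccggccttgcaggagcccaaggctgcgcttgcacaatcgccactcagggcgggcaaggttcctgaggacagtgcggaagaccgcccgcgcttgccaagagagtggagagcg
Cyp24a1 downstream: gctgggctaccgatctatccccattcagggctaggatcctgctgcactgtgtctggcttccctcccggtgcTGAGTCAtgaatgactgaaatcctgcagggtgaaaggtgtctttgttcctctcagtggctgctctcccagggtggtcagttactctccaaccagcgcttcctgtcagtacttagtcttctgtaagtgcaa

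The next windows are shown because they held the only exact direct repeats among the 104 regions. The DR3 repeat lay 29477 bp downstream of the Cyp24a1 start site, in a window (chr2:170467631-170467831) that also held an AP-1 motif, and the motifs did not overlap. The DR5 repeat lay on the minus strand, which is the coding strand of Rarg, 734 bp from the nearest Rarg start site (window chr15:102247101-102247301). Capitals mark AP-1 and both hexamers of each repeat.
Cyp24a1 DR3: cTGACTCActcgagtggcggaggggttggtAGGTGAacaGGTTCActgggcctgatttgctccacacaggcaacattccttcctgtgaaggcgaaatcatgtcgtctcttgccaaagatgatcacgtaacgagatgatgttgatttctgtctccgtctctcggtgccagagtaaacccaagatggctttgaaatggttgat
Rarg DR5: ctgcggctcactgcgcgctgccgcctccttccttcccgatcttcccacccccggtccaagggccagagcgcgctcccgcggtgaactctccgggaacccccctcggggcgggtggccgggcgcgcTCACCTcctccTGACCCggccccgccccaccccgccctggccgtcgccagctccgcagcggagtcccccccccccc

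The 4 peak lists held 49856 to 69927 peaks. Library depth, taken from the fragments piled up at summits and set relative to WT 1, came to 0.7 for WT 2, to 1.11 for Mapk8-KO 1 and to 0.654 for Mapk8-KO 2, so both libraries numbered 2 were the shallower ones. The Mapk8 promoter was open in all 4 libraries (96, 73, 109 and 90 fragments in the order WT 1, WT 2, Mapk8-KO 1, Mapk8-KO 2), and an open promoter does not test a deletion inside the gene. Promoters of 7 keratinocyte genes were called 4 to 7 times per library, with summed pileups of 290 and 128 fragments in WT and 478 and 250 in Mapk8-KO. Among them the Krt14 promoter had 36 fragments in WT 1, was not called in WT 2, and had 199 and 109 in Mapk8-KO. None of 5 leukocyte, 2 endothelial and 3 melanocyte promoters was called in any library. Of 3 fibroblast promoters, Pdgfra was called in each library (26 to 58 fragments) and Col1a1 and Col1a2 in none. The part of these differences in the results that follow was not tested.

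Chromatin around the 9 genes was open at a similar number of places in both genotypes. Of the 104 regions, 94 were called in WT 1 and 70 in WT 2, against 84 and 64 in the Mapk8-KO libraries 1 and 2. The genotypes overlapped, with 82 ± 17.0 regions in WT and 74 ± 14.1 in Mapk8-KO (SD, n = 2 each, two-sided exact permutation p = 0.667). With 2 libraries against 2, the smallest p this test can give is 0.333. The direction of the difference turned without WT 1, without Mapk8-KO 2, and with peak lists cut to equal length (3.5 more in Mapk8-KO). The deeper libraries were the ones with more regions, as over the whole genome (83.8%, 65.2%, 83.2% and 59.1% of all regions called in the same order).

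Calls in all 4 libraries made up 54 of the 104 regions (51.9%, Wilson interval 42.4 to 61.3), against 48.6% of all regions. A further 16 regions were called in 3 libraries (15.4%, against 15.7% of all regions), 14 in 2 (13.5%, against 14.0%) and 20 in 1 (19.2%, against 21.7%). Those called in 1 library had at most 36 fragments at the summit. Of the 20, 12 came from WT 1 and 6 from Mapk8-KO 1. Regions within 2 kb of any start site numbered 38 (36.5%, against 26.7% of all regions), and the median GC content was 56.0% (49.4% over all regions). The neighbourhoods were shared with other genes, since the nearest start site belonged to 1 of the 9 genes for only 56 of the 104 regions.

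**Figure D1:**
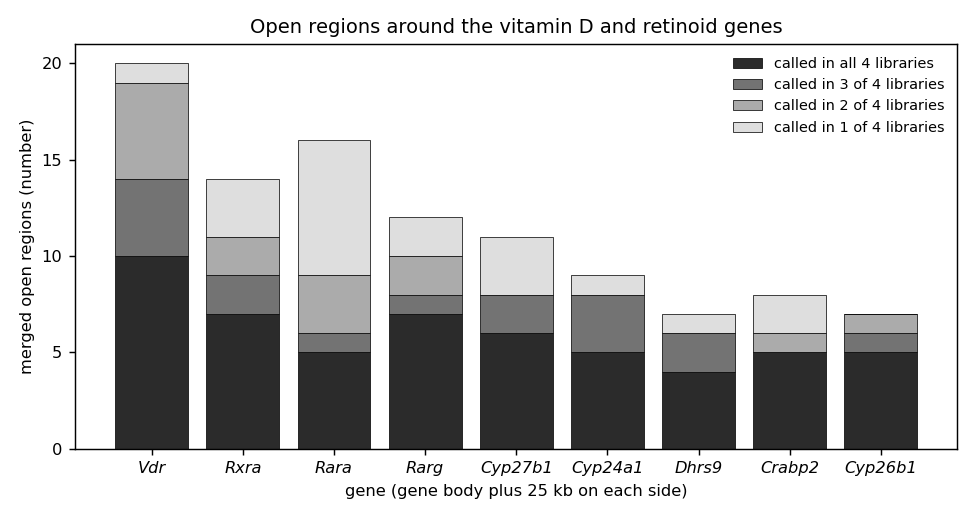
Number of merged open regions (vertical axis) around each of the 9 genes (horizontal axis), split by the number of libraries that called them. Vdr had the most regions, 20, and Dhrs9 and Cyp26b1 the fewest, 7 each.

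Regions that were open in only 1 genotype were rare. WT-specific regions, called in both WT libraries and in neither Mapk8-KO library, numbered 2 of 104, beside 2.17% of all regions. One lay in an intron of Vdr (chr15:97895709-97895994), with 22 fragments in WT 1 and 14 in WT 2. The other lay in an intron of Cyp26b1, 1452 bp from a start site of that gene (chr6:84590090-84590480), with 14 and 13 fragments. Both are shallow, since the lowest summit pileup in any peak list was 8 to 10 fragments, and a region that was not called may lie just under the caller's threshold. Mapk8-KO-specific regions numbered 0 of 104, beside 1.65% of all regions. The direction turned when peak lists were cut to equal length, with 1 WT-specific and 3 Mapk8-KO-specific regions.

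To compare regions called in all 4 libraries, each region's fold enrichment over local background was turned into a percentile within its library's own peak list, where 100 is the strongest peak. A region was said to rank higher in one genotype when both of its percentiles there exceeded both in the other by 10 points or more. By this rule 6 of 54 regions ranked higher in Mapk8-KO (11.1%, Wilson interval 5.19 to 22.2), beside 3.78% of all regions. The 6 were 3 in the Vdr neighbourhood, 2 at Dhrs9 and 1 near Cyp27b1. Only 1 of 54 ranked higher in WT (1.85%), beside 2.65% of all regions, and it was the Dhrs9 intron. With percentiles taken among regions called in all 4 libraries, 3 ranked higher in Mapk8-KO and 1 in WT. Without Mapk8-KO 1 the counts were 9 and 10. The 54 regions had lower percentiles than all regions called in all 4 libraries (mean of library medians 45.2 against 64.4 in WT, 48.6 against 63.9 in Mapk8-KO). The part of this in the counts was not tested. With no minimum gap, the percentiles of the genotypes did not overlap in 14 regions that were higher in Mapk8-KO (25.9%, beside 18.9% of all regions) and in 4 that were higher in WT (7.41%, beside 13.8%).

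The same 54 regions were tested on the number of fragments at the summit, as log2(pileup + 1) centred on each library's median, with limma over all 40157 regions that had a value in every library. None of the 54 passed an adjusted p of 0.05, and the lowest adjusted p was 0.194. Over all regions limma called 0.334% higher in WT and 0.0647% higher in Mapk8-KO. At an unadjusted p under 0.05, limma gave 5 regions higher in Mapk8-KO (beside 5.67% of all regions) and 2 higher in WT (beside 5.31%). The log2 difference, Mapk8-KO minus WT, ranged from −0.72 to 0.57 and had a median of 0.12, against a median of 0.05 over all regions. With a correction for GC content these medians were 0.04 and 0.03. The uncorrected difference was above 0 in 35 of 54 regions (64.8%, against 57.4% of all regions). Fewer cells with an open region and less opening per cell cannot be told apart in such bulk libraries.

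**Figure D2:**
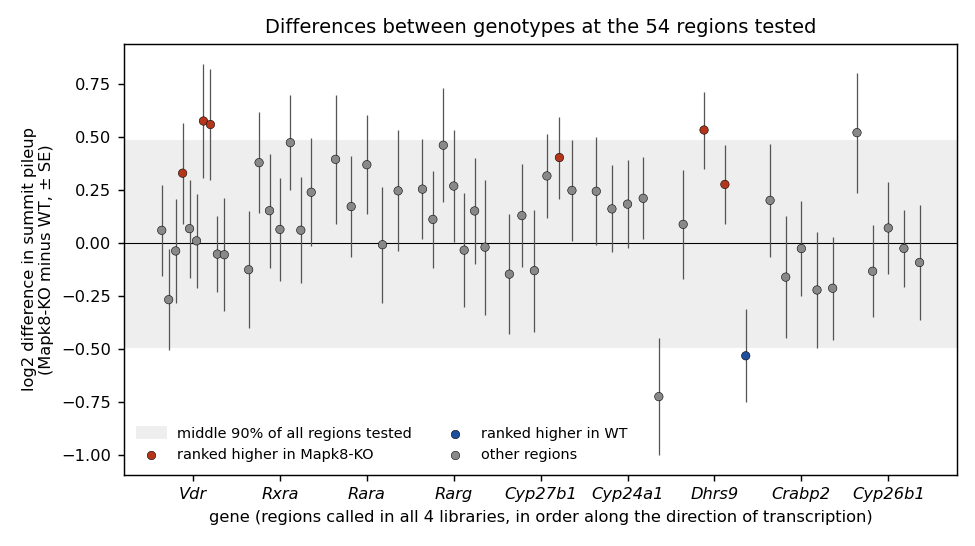
Difference in log2 summit pileup between Mapk8-KO and WT (vertical axis, ± SE of the limma fit) for each region called in all 4 libraries, grouped by gene (horizontal axis), with the middle 90% of all regions in grey. Most of the 54 points lie within the grey band, and the lowest point, −0.72, is the region downstream of Cyp24a1.

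Vdr encodes the receptor of active vitamin D. Its gene body (chr15:97854425-97910630, minus strand) and flanks held 20 regions, of which 10 were called in all 4 libraries. The promoter region (chr15:97907245-97908742) had 60 fragments in WT 1 and 39 in WT 2, against 59 and 42 in the Mapk8-KO libraries 1 and 2. The percentiles overlapped (45.6 and 31.4 in WT, 49.0 and 42.0 in Mapk8-KO), and the log2 difference was 0.06 ± 0.21 (SE, limma).

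All 3 regions around Vdr that met the ranking rule ranked higher in Mapk8-KO. The one with the largest log2 difference around Vdr lay in an intron (chr15:97863016-97863728), with 28, 18, 40 and 28 fragments in the order WT 1, WT 2, Mapk8-KO 1, Mapk8-KO 2. Its percentiles were low throughout, 7.74 and 5.37 in WT and 24.0 and 27.7 in Mapk8-KO, and its log2 difference was 0.57 ± 0.27 (limma adjusted p = 0.416). The gap of 16.3 points narrowed to 4.41 when percentiles were taken only among regions called in all 4 libraries. A second intronic region, with an AP-1 motif (chr15:97883304-97883685), had 41, 28, 54 and 33 fragments and percentiles of 21.0, 18.8, 35.0 and 43.3. Its log2 difference was 0.33 ± 0.24 (limma adjusted p = 0.642), and its gap of 14.0 points narrowed to 1.30 when the lists were cut to equal length and was 2.34 among regions called in all 4.

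The third of these regions lay between Vdr and Hdac7, a histone deacetylase gene whose start site, 4785 bp away, is the nearest (chr15:97849287-97849812). It had 32 fragments in WT 1 and 20 in WT 2, against 42 and 33 in the Mapk8-KO libraries 1 and 2. The percentiles were 44.9 and 35.4 in WT and 60.6 and 72.4 in Mapk8-KO, so the lowest Mapk8-KO library was 15.7 points above the highest WT library. The log2 difference was 0.56 ± 0.26 (limma adjusted p = 0.413), and 0.35 without Mapk8-KO 2. The region ranked highest in the Vdr neighbourhood lay inside Hdac7 (chr15:97837369-97838267), with percentiles of 75.4 and 67.3 in WT and 67.7 and 67.1 in Mapk8-KO, which overlapped.

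Rxra encodes the retinoid X receptor that pairs with the other 3 receptors. Its 14 regions, 7 of them called in all 4 libraries, all had a start site of Rxra as the nearest. The promoter region (chr2:27676818-27677291) had 36 and 22 fragments in WT and 28 and 23 in Mapk8-KO, with a log2 difference of −0.13 ± 0.27. The largest difference stood in an AP-1-bearing intron (chr2:27721502-27721949), with 46 and 30 fragments in WT and 69 and 38 in Mapk8-KO. Both Mapk8-KO percentiles (71.2 and 51.1) were above both in WT (48.7 and 46.6), but the gap was under 10 points, and the log2 difference was 0.47 ± 0.22 (limma adjusted p = 0.418), or 0.25 on log2 fold. The intronic region that ranked highest at Rxra (chr2:27758513-27759656) had overlapping percentiles of 70.8 and 44.2 in WT and 67.2 and 52.8 in Mapk8-KO.

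The retinoic acid receptor genes Rara and Rarg had 16 and 12 regions. Only 5 of the 16 around Rara were called in all 4 libraries, and 7 were called in 1. The Rara region that ranked highest was also its strongest promoter region, 532 bp from an internal start site (chr11:98959521-98959880). It had 34 and 22 fragments in WT and 30 and 24 in Mapk8-KO, and its log2 difference was −0.01 ± 0.27. The largest Rara difference, 0.39 ± 0.30, came from the start site of the neighbouring replication gene Cdc6 (chr11:98907561-98907845), with 16 and 20 fragments in WT and 24 and 23 in Mapk8-KO. It was −0.045 without WT 1 and 0.042 without Mapk8-KO 2.

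At Rarg, the receptor known as the main retinoic acid receptor of epidermis, the start site region (chr15:102257302-102258311) had 29 and 21 fragments in WT and 37 and 31 in Mapk8-KO. Its percentiles, 11.7 and 3.45 in WT and 23.0 and 20.4 in Mapk8-KO, did not overlap but were 8.68 points apart, under the minimum gap. This was the largest difference at Rarg, 0.46 ± 0.27 (limma adjusted p = 0.535), and it was 0.20 without Mapk8-KO 2 and 0.75 without Mapk8-KO 1. A stronger region 1303 bp from a Rarg start site (chr15:102255931-102256214) varied more within than between genotypes, with percentiles of 13.9 and 44.9 in WT and 48.3 and 11.8 in Mapk8-KO. The region with the DR5 repeat (chr15:102246428-102247400) had 40 and 29 fragments in WT and 40 and 35 in Mapk8-KO, and its log2 difference was 0.15 ± 0.25. By mean percentile over the libraries that called it, the highest region in the Rarg window was called in WT 1 alone (54.6, 23 fragments). It lay inside the neighbouring gene Zfp740 (chr15:102210867-102211063). In WT 1 itself a region called in all 4 libraries (chr15:102262235-102263418) stood higher, at 61.8.

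**Figure D3:**
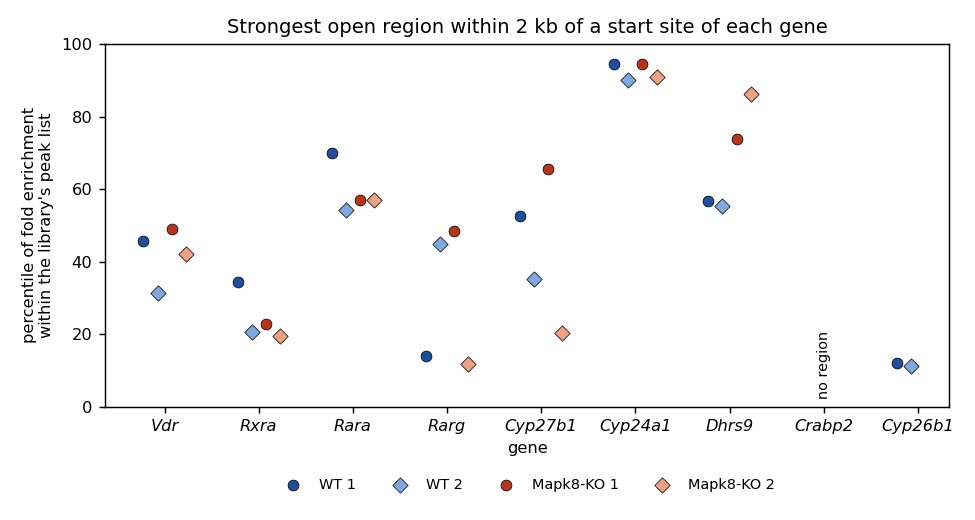
Percentile of fold enrichment within each library's peak list (vertical axis) for the region with the highest mean fold, over the libraries that called it, within 2 kb of a start site of each gene (horizontal axis). Only at Dhrs9 do both Mapk8-KO points lie clear above both WT points, and the Cyp24a1 points all lie above 90. Cyp26b1 has WT points only, since its region was not called in Mapk8-KO, and Crabp2 had no region.

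Cyp24a1, which inactivates the vitamin D hormone and is a classical target of its receptor, had the promoter region with the highest fold enrichment among the 9 genes. It lay 39 bp from the start site (chr2:170497184-170497633) and had 83 fragments in WT 1 and 45 in WT 2, against 94 and 52 in the Mapk8-KO libraries 1 and 2. The percentiles were 94.5 and 90.1 in WT and 94.6 and 90.8 in Mapk8-KO, so the region was among the most open peaks of every library and the genotypes overlapped. Its summit lay in an intron of the neighbouring gene Pfdn4. A start site of Pfdn4 lay in the adjacent region (chr2:170496296-170496519), so the opening cannot be assigned to Cyp24a1 alone. The log2 difference was 0.21 ± 0.19 (limma adjusted p = 0.733).

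The lowest log2 difference of all 54 regions was also at Cyp24a1, at the downstream AP-1 region whose window is printed above (chr2:170469505-170469956), 27189 bp from the start site. It had 44 fragments in WT 1 and 26 in WT 2, against 30 and 13 in the Mapk8-KO libraries 1 and 2. The difference was −0.72 ± 0.28, with an unadjusted limma p of 0.010 and an adjusted p of 0.271, and it was −0.44 on log2 fold. The percentiles overlapped (78.6 and 61.4 in WT, 66.1 and 23.8 in Mapk8-KO), so it did not meet the ranking rule, and the Mapk8-KO libraries were themselves far apart. The neighbouring region with the DR3 repeat (chr2:170467610-170467859) was called in 3 libraries, with 20 fragments in WT 1 and 17 in each Mapk8-KO library. It was not called in WT 2 and could not be tested.

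Cyp27b1, the enzyme that activates vitamin D, is a short gene (chr10:127048250-127053006) among many others, and only 2 of the 11 regions around it had it as the nearest gene. Its promoter region (chr10:127048772-127049102) had 28 and 20 fragments in WT and 32 and 14 in Mapk8-KO, with a log2 difference of −0.13 ± 0.29. The region that ranked higher in Mapk8-KO in this neighbourhood was the promoter of Cdk4, a cell cycle kinase gene (chr10:127063183-127063817). It had 64 fragments in WT 1 and 48 in WT 2, against 94 and 56 in the Mapk8-KO libraries 1 and 2, with percentiles of 41.4, 35.2, 60.5 and 54.0. The log2 difference was 0.40 ± 0.19 (limma adjusted p = 0.428) and 0.24 with a GC correction, and the gap of 12.6 points stayed between 10.1 and 16.2 under 4 other ways to rank. The highest percentile near Cyp27b1 was at the promoter of Tsfm (chr10:127030353-127030974), with 68.8 and 71.3 in WT and 76.0 and 34.8 in Mapk8-KO.

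Dhrs9 encodes a short-chain dehydrogenase that takes part in the oxidation of retinol. Of its 4 regions called in all 4 libraries, 3 met the ranking rule, and the other lay far upstream. The start site region with the AP-1 motif (chr2:69380264-69380872) had 80 fragments in WT 1 and 59 in WT 2, against 114 and 85 in the Mapk8-KO libraries 1 and 2. Its percentiles of 56.7 and 55.4 in WT and 73.7 and 86.2 in Mapk8-KO were 17.0 points apart. The log2 difference of 0.53 ± 0.18 had an unadjusted limma p of 0.0043 and an adjusted p of 0.194, the lowest of the 54. It was 0.74 without Mapk8-KO 1 and 0.36 without Mapk8-KO 2, in fits where the lone Mapk8-KO library is assumed to vary like WT. By −log10 p in place of fold the gap was 9.32 points.

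An intronic Dhrs9 region 2569 bp from the start site (chr2:69383014-69383344) went the same way, with 74 and 56 fragments in WT and 99 and 60 in Mapk8-KO. By percentile it stood at 52.5 and 51.1 in WT and at 65.6 and 64.0 in Mapk8-KO. The gap of 11.5 points narrowed to between 5.20 and 5.86 under 3 other ways to rank, and the log2 difference was 0.28 ± 0.19 (limma adjusted p = 0.613). The deeper intronic region with an AP-1 motif, 17836 bp from the start site (chr2:69398281-69398675), went the other way. It had 65 fragments in WT 1 and 48 in WT 2, against 57 and 25 in the Mapk8-KO libraries 1 and 2, and percentiles of 82.6 and 81.3 in WT and 69.7 and 56.6 in Mapk8-KO. The log2 difference was −0.53 ± 0.22 (limma adjusted p = 0.329) and −0.33 without Mapk8-KO 2, and the gap of 11.5 points was 8.72 by −log10 p. Regions of a single gene thus ranked in opposite directions, each short of the adjusted threshold.

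The region far upstream of Dhrs9 (chr2:69355538-69355722) stood apart in every library. Its pileups were 1716 and 1477 fragments in WT and 1848 and 1508 in Mapk8-KO, above 99.98% of the peaks in each list. Over 129 of its bases the sequence was 100% identical to mitochondrial DNA, and whether fragments of mitochondrial origin had been placed there was not tested. Its log2 difference was 0.09 ± 0.26.

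**Figure D4:**
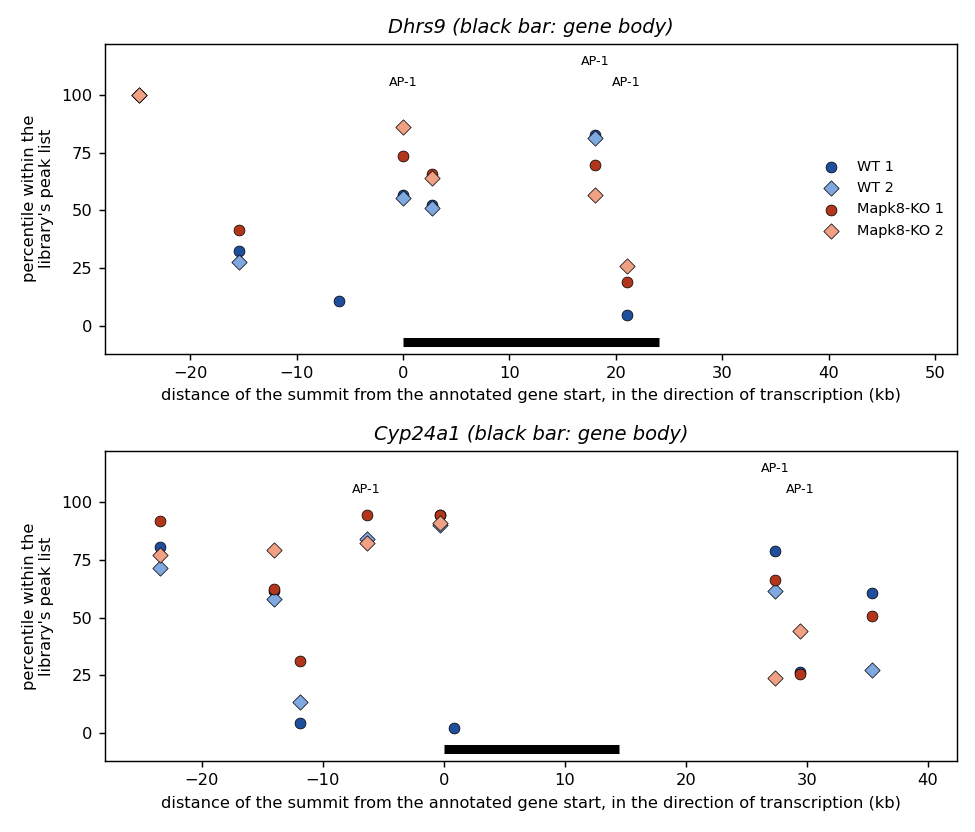
Percentile within each library's peak list (vertical axis) of every region around Dhrs9 and Cyp24a1, against the distance of its summit from the gene start in kb (horizontal axis). At the Dhrs9 start site both Mapk8-KO points (73.7 and 86.2) lie above both WT points, and 18.1 kb further on they lie below them.

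Crabp2, the carrier that hands retinoic acid to its receptors, had no region within 2 kb of its start site in any library. Of the 8 regions in its window, 5 were called in all 4 libraries and none met the ranking rule. The highest-ranking one was at the start site of the neighbouring gene Rrnad1 (chr3:87929883-87930798), with percentiles of 74.4 and 55.7 in WT and 72.6 and 70.8 in Mapk8-KO. The largest difference, −0.22 ± 0.27, was at a downstream region (chr3:87958558-87958915) with 33 and 27 fragments in WT and 30 and 21 in Mapk8-KO. Leaving out each library in turn gave −0.37 (without WT 1), −0.091 (without WT 2), −0.056 (without Mapk8-KO 1) and −0.36 (without Mapk8-KO 2), and the value was −0.079 on log2 fold.

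Cyp26b1, the enzyme that clears retinoic acid, had a weak start site region (chr6:84588619-84589292) with 21 and 11 fragments in WT, 19 in Mapk8-KO 1 and no call in Mapk8-KO 2. Its promoter region by highest mean fold was the WT-specific region described above (chr6:84590090-84590480), which has no Mapk8-KO value. The strongest region in its window lay downstream and held an AP-1 motif (chr6:84559284-84559954), with 90 and 73 fragments in WT and 112 and 55 in Mapk8-KO. Its percentiles were among the highest around the 9 genes and overlapped (88.0 and 90.6 in WT, 88.9 and 92.0 in Mapk8-KO), and its log2 difference was −0.03 ± 0.18. The largest difference at Cyp26b1, 0.52 ± 0.28, was at an intronic region (chr6:84583387-84583847) with 33 and 14 fragments in WT and 33 and 29 in Mapk8-KO. The limma adjusted p was 0.502, and the difference was 0.20 without WT 2 and 0.23 without Mapk8-KO 2.

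The wider pathway was read from 33 other genes, which had 230 regions, 107 of them called in all 4 libraries. WT-specific and Mapk8-KO-specific regions numbered 6 and 4, beside 2.17% and 1.65% of all regions. Of the 107, the ranking rule put 4 higher in WT (beside 2.65% of all regions) and 4 higher in Mapk8-KO (beside 3.78%). The median log2 difference was 0.05, as over all regions. Of the 4 regions that ranked higher in Mapk8-KO, 2 were at genes of retinoic acid synthesis and retinol storage and 2 at partners and coregulators of the receptors. Only 1 region passed the limma threshold. It lay 56243 bp from the start site of Aldh1a1, a retinaldehyde dehydrogenase gene (chr19:20658204-20658490), with 64 and 38 fragments in WT and 103 and 67 in Mapk8-KO. It was higher in Mapk8-KO by 0.76 ± 0.19 (limma adjusted p = 0.047). This call was lost without a variance trend and on log2 fold, where limma called 0 regions in all. At promoters, Rdh11, a retinol dehydrogenase gene, ranked higher in Mapk8-KO (chr12:79190923-79191282), with 40 and 31 fragments in WT and 61 and 42 in Mapk8-KO. Its log2 difference was 0.53 ± 0.23 (limma adjusted p = 0.352). The Aldh1a3 promoter (chr7:66427277-66427693) was WT-specific, with 14 and 20 fragments. No promoter region was called for Rdh16, Crabp1 and Cyp26a1.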

How the data were processed

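The authors deposited 1 peak list per library. Per the study's methods they mapped paired reads to mm10 with Bowtie2, removed multiple and poor alignments, and called peaks with MACS2 at q 0.05. The files hold a separate list for each library. The highest q in any list was 0.0097. The submitters' processing notes also name Trimmomatic 0.36, STAR 2.5.3, Picard and SAMtools. No Tn5 shift is stated, which can move a summit by a few bases. Each deposited list gives a fold enrichment over local background, −log10 p and −log10 q values and a score. The total number of reads is not given in the sources used here.

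Fragments at the summit were recovered by solving the authors' fold and −log10 p values together. At least 99.996% of peaks gave whole fragments, to within 0.05. Values were log2(pileup + 1), centred on the library median and tested with limma 3.58.1 (R 4.3.3, variance trend, Benjamini-Hochberg over 40157 regions). A fold change on this scale understates that of weak regions. The study tested read counts with DESeq2, which peak lists do not allow. On simulated pileups of 40157 regions, limma found 47% of 100 regions changed 2-fold and 98% of 100 changed 4-fold. The simulation assumed a fixed spread that was not estimated from these libraries and placed changes only in deeper regions. It held no GC effect and no calling threshold, so these shares are not the recovery in the real data. Wilson and pileup errors cover counting only.

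Start sites came from GENCODE vM21 and motifs from the mm10 sequence. The members, lists and rules were chosen with earlier results of these data known. For each gene the text names the promoter region (within 2 kb, highest mean fold) and the region with the largest absolute log2 difference. It names the highest-ranking region too, by mean percentile over the libraries that called it. It also names every genotype-specific or ranked region, and, among the 33 other genes, such regions at promoters and any past the limma threshold. Alternatives varied the q threshold, flank, overlap, list length, ranking measure, gap, centring, GC correction, replicate block, motif window and the libraries used.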

Additional observations from a re-analysis of the deposited data

How the results depend on the processing

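With lists cut to equal length, 1 region was WT-specific and 3 were Mapk8-KO-specific. Of regions ranked higher in Mapk8-KO, 3 were left when only regions nearest to 1 of the 9 genes were kept, and 3 with percentiles among regions called in all 4 libraries. By −log10 p, 0 ranked higher in WT, and a gap of 20 points left 0 in either genotype. Allowing 1 mismatch raised the direct-repeat regions from 2 to 19 (18.3%, against 16.4% of all regions). With 10 kb flanks, 0 regions of the other pathway genes passed limma. Leaving out each library in turn gave 3 to 14 WT-specific and 1 to 6 Mapk8-KO-specific regions, 1 to 10 ranked higher in WT and 8 to 19 in Mapk8-KO, where the rules are easier to meet with fewer libraries. The WT-specific count was 14 without WT 2 and 12 without Mapk8-KO 1, and the Mapk8-KO-specific count 4 without WT 1 and 6 without Mapk8-KO 2. Of regions ranked higher in WT there were 4 without WT 2 and 10 without Mapk8-KO 1, against 8 and 9 ranked higher in Mapk8-KO. Of those ranked higher in Mapk8-KO there were 14 without WT 1 and 19 without Mapk8-KO 2, against 1 and 1 in WT. In fits on all 4 libraries, limma called 0 of the regions around the 9 genes in either genotype under every setting. Fits that leave 1 library in a genotype are given as differences only. At the Dhrs9 start site region these ran from 0.36 without Mapk8-KO 2 to 0.74 without Mapk8-KO 1. The difference in calls per library, 8 more in WT, ranged from −4 without WT 1 to 20 without WT 2 and was −3.5 with lists of equal length. The median percentile difference of the named regions, several of which were named for a large difference, was 13.0 points, and 3.51 to 13.9 with a library left out, lowest without Mapk8-KO 1. Over all 54 regions the median percentile was 45.2 ± 5.90 in WT and 48.6 ± 9.95 in Mapk8-KO (SD, n = 2, exact permutation p = 0.667). Over all regions called in all 4 libraries it was higher, 64.4 ± 5.10 in WT and 63.9 ± 7.56 in Mapk8-KO. The cause of these changes was not tested. Of 104 alternatives for log2 differences at 13 named regions, not counting settings that leave the difference itself as it is, 103 kept their direction. These regions were named for a large difference or rank gap in the same libraries, and the alternatives reuse the same values. A kept direction was therefore likely from the start and is no independent support. The Cdc6 region ranged from −0.045 without WT 1, a reversal, to 0.82 without WT 2. Over all regions, the limma calls (134 higher in WT, 26 in Mapk8-KO) were 0 and 0 without a variance trend and 0 and 0 on log2 fold. They were 30 and 2 with quantile normalization and 50 and 13 with a GC correction. Across regions, the difference between replicates 1 and 2 in WT was nearly uncorrelated with that in Mapk8-KO (Pearson r = 0.0457). This value does not decide whether libraries that share a number were handled together, and both libraries numbered 2 were the shallower ones. The numbers were not taken as pairs in the main fit. A replicate block gave 285 and 105 calls over all regions and 265 and 151 with a GC correction, 0 of them among the 54 regions, and 2 regions ranked higher in WT. The lists hold no reads, and a region under the caller's threshold has no value, so depth limits what weak regions can show.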
